A study of Mus musculus with 2 samples.

Results

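The genes described here encode membrane carriers for glucose, lactate and amino acids: 81 measured genes of the Slc1, Slc2, Slc3, Slc6, Slc7, Slc16, Slc38 and Slc43 families that the symbol rule took, out of 55357 features. They comprise 7 Slc1, 12 Slc2, 2 Slc3, 19 Slc6, 14 Slc7, 13 Slc16, 11 Slc38 and 3 Slc43 genes, and they were chosen by symbol, not by level. They were measured in 1 mouse single-cell library per genotype, labelled WT and KO for Runx3, a transcription factor of NK and CD8 T cells. The labels give colon as the tissue of both libraries, and the series' design text says that tumor models were set up in Runx3-deficient mice. The sources used here do not give the strain, age, tumor model, deleted part of the gene or number of animals pooled.

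Glucose enters cells through facilitative Slc2 carriers and, when it is fermented, leaves as lactate through proton-coupled Slc16 carriers that need the chaperone basigin. Amino acids enter through sodium-coupled carriers such as Slc1a5 and the Slc38 family. They are exchanged across the membrane by Slc7 light chains, which reach the surface bound to the heavy chain Slc3a2. Activated T cells, macrophages and tumor stroma are known to use different members of these families.

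The deposited barcodes were sorted by marker genes into a lymphoid class (NK and T cells), a macrophage class and a non-immune class with mesenchymal genes. The lymphoid class held 1278 cells in the WT library and 454 in the library labelled KO, the macrophage class 5081 and 3301, and the non-immune class 185 and 113. Of the cells kept, 21.6% (WT) and 25.5% (labelled KO) met no gate and were left out. Levels are summed UMIs (unique molecules) of a class per 1000000 of all its UMIs (CPM), with exact Poisson 95% intervals that cover counting error only. With 1 library per genotype there is no replicate spread, and no test between genotypes was made.

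Several checks of the labels bear on all that follows. Runx3 stood at 511 CPM in WT lymphoid cells and at 484 CPM in those labelled KO. In NK cells it stood at 709 CPM (interval 669 to 752) and 886 CPM (814 to 963), higher in those labelled KO. In macrophages it stood at 216 CPM (212 to 220) and 172 CPM (168 to 177), lower in those labelled KO. The transcript was thus present in these classes of the library labelled KO, and the counts alone do not show a deletion. A 3' tag outside the deleted part would not show a deletion, but the deleted part is not given, and whether this holds here was not tested. The libraries also differed in sex: 6629 of 8343 WT cells had Y-linked UMIs without Xist (male-type), whereas the library labelled KO held 1250 male-type, 2840 female-type and 419 cells with both signals among 5194. Neither signal was found in 170 of 185 WT and 97 of 113 KO-labelled non-immune cells, with medians of 13893 and 16738 UMIs. In macrophages this held for 859 of 5081 and 284 of 3301 cells, with medians of 9131 and 10112 UMIs. The sex type of most non-immune cells is thus not known, and their origin was not tested. The libraries share 17 cell barcodes. Although the tissue label is colon, 1 of 8343 WT cells and 0 of 5194 in the library labelled KO had 3 or more of 10 epithelial markers, while 94.9% and 93.7% had 3 or more leukocyte markers. The summed epithelial markers ranged from 3.05 to 43.2 CPM over the 3 classes of both libraries, with 2 to 8 of the 10 genes at 0. Macrophage RNA was present among lymphoid cells, where the C1q genes reached 2.92% (WT) and 3.98% (labelled KO) of their macrophage level, and Lyz2 reached 3.11% and 3.98%. In non-immune cells the C1q genes stood at 1.59% and 2.09% of the macrophage level. T-cell markers in macrophages stood at 0.232% and 0.188% of their own class, and mesenchymal markers in macrophages at 0.161% and 0.195%.

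The promoters of 3 genes are shown here because these genes were graded together across macrophages (values are given after those of the classes): the glucose carrier Slc2a1, the lactate carrier Slc16a3 and the cystine carrier Slc7a11. They are RefSeq sequences on GRCm38.p6, each printed 5′ to 3′ on the gene's strand from 100 bases before the RefSeq start to its last motif match, with the match in capitals. Slc2a1 is at chr4:119108645-119108713 on the plus strand, Slc16a3 at chr11:120948967-120949057 on the plus strand and Slc7a11 at chr3:50443653-50443713 on the minus strand. The stretches lie upstream of the RefSeq start, with 3 bases (Slc2a1) and 5 bases (Slc16a3) inside a GENCODE exon and none for Slc7a11. The GENCODE gene of Slc16a3 starts at 120948480, so its whole stretch lies within that annotated gene.
Slc2a1: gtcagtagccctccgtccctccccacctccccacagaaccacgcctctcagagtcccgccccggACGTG
Slc16a3: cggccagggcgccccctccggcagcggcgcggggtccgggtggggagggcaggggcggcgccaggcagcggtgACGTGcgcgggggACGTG
Slc7a11: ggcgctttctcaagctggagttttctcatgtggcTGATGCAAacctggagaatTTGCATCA
In Slc2a1 and Slc16a3 the capitals mark ACGTG, the core bound by hypoxia-inducible factors, which overlaps the E-box CACGTG; it was searched on both strands. It occurred in the 100 bases before the start in 8.09% of 32851 promoters and in 13.8% of the 80 promoters of the 59 transporter genes in the table. In Slc7a11 they mark TGATGCAA, a composite element of ATF4 with C/EBP proteins, once on each strand. That element occurred in 0.359% of all promoters and in 1.25% of the transporter promoters, Slc7a11 being the single gene. The RUNX motif TGTGGT occurred in 5.61% of all promoters and 2.50% of the transporter promoters. Slc6a8, graded by the same rule, is not in the table. Of the 29 transporters measured across those bins, Slc7a6 and Slc38a7 also hold ACGTG. Slc7a6 stood at 10.6 CPM in the lowest and 6.28 CPM in the highest WT bin and at 11.8 and 7.11 CPM in those labelled KO, and Slc38a7 at 15.4 and 11.2 and at 17.6 and 14.8 CPM, so the letters and the grading did not go together in all members. A match describes letters in this window, not binding.

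Of the 81 transporters, 37 had at least 50 UMIs over the 3 classes; of the other 44, 10 had none and 34 had 1 to 49. A gene was called led by a class when that class had the highest CPM in both libraries and at least 2 times the next class in both. Macrophages led 9 of the 37 transporters (24.3%), against 8.43% of 15317 genes with as many UMIs. Lymphoid cells led 2 (5.41%, against 8.51% of all genes), and non-immune cells led 4 (10.8%, against 15.5%). The remaining 22 had no leading class. All genes met the same minimum, but it is summed over the classes. Macrophages hold most of those UMIs (49297632 and 35888192, against 6476806 and 2637687 in lymphoid and 2886712 and 2298063 in non-immune cells). A gene therefore passes at a lower CPM in macrophages than elsewhere. Some transporters passed only through the class that leads them, such as Slc6a15, with 70 and 49 of its 126 UMIs in non-immune cells. The counts describe placement and are not a test.

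**Figure D1:**
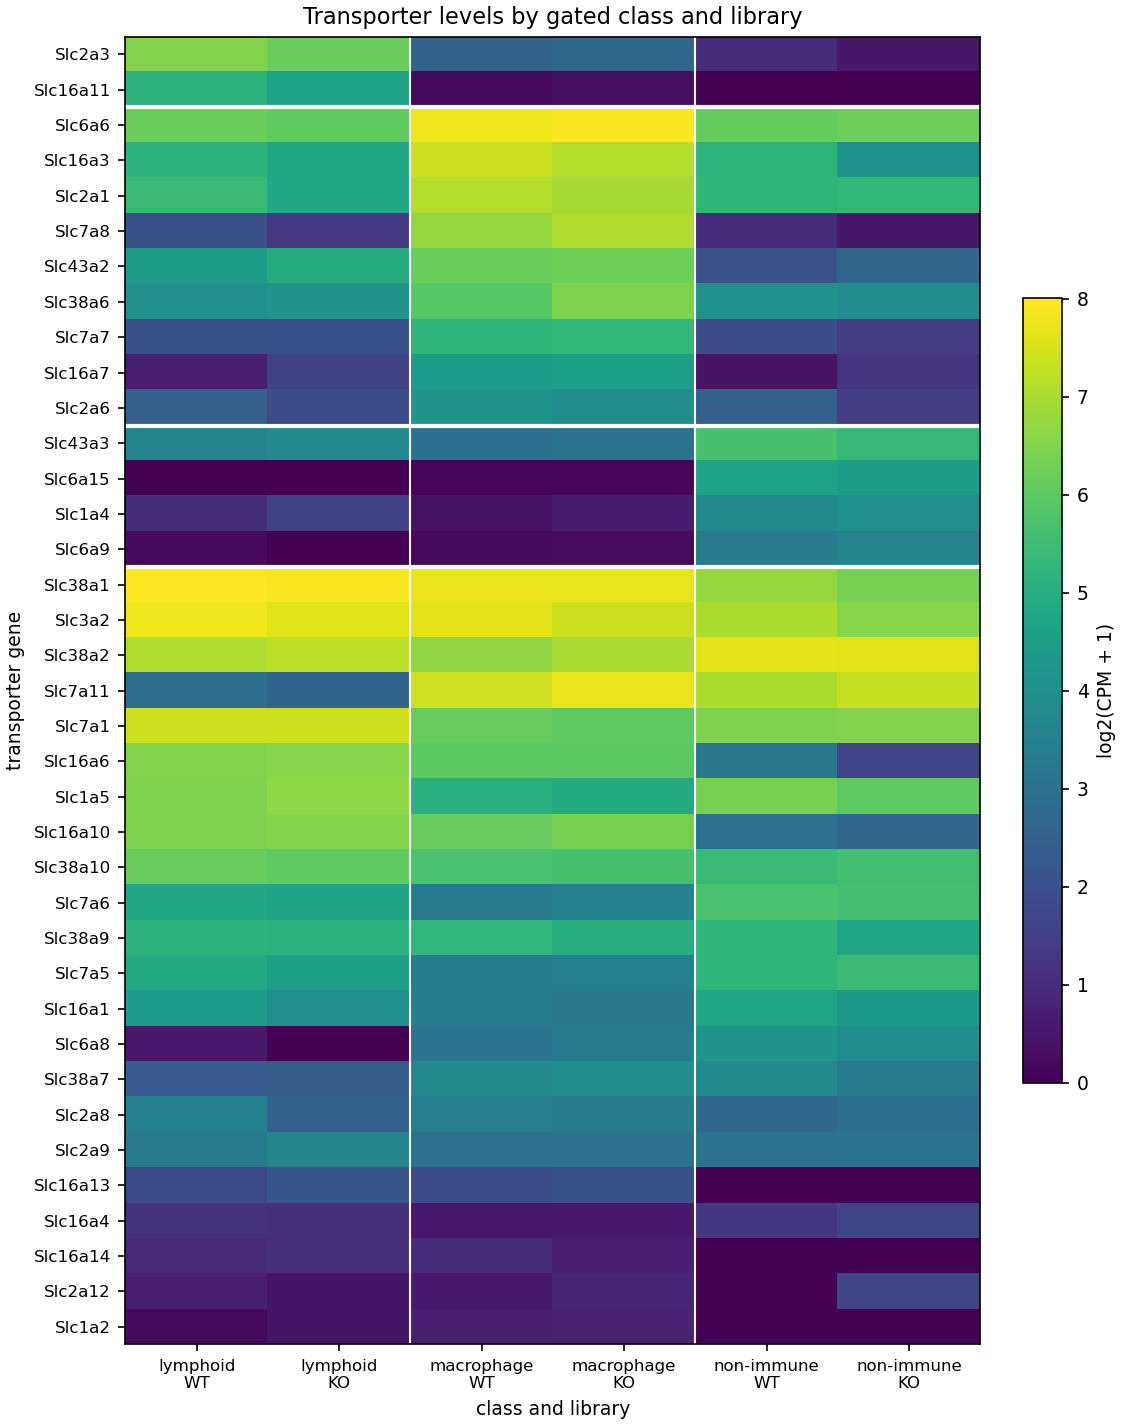
Level of the 37 transporters with at least 50 UMIs, as log2(CPM + 1), in each class (columns) of the WT and KO-labelled libraries; white lines separate genes led by lymphoid, macrophage and non-immune cells from those led by none. Slc2a3 and Slc16a11 are bright in lymphoid columns, Slc7a8 and Slc7a7 in macrophages, and Slc6a15 in non-immune cells.

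Glucose carriers separated lymphoid cells from macrophages. Slc2a3, the high-affinity glucose carrier of neurons and lymphocytes, stood at 88.2 CPM in WT lymphoid cells (interval 81.1 to 95.7) and at 72.0 CPM in those labelled KO (62.2 to 83.0). It stood at 4.81 and 5.43 CPM in macrophages and at 1.04 and 0.435 CPM in non-immune cells (3 and 1 UMIs). The lymphoid intervals lay far above those of both other classes in each library.

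Slc2a1, the widespread basal glucose carrier, had the opposite placement. It reached 138 CPM in WT macrophages and 122 CPM in those labelled KO, against 41.4 and 26.9 CPM in lymphoid cells and 37.1 and 38.7 CPM in non-immune cells. Macrophage RNA was present among lymphoid cells, at 2.92% and 3.98% of the macrophage level for the C1q genes, and its part in the lymphoid Slc2a1 level was not tested. Slc2a6, a lysosomal hexose carrier of inflammatory macrophages, stood at 17.9 and 14.1 CPM in macrophages against 4.48 and 2.65 CPM in lymphoid cells. Among the UMIs of the 5 most read Slc2 genes, Slc2a3 gave 57.6% and 61.3% in lymphoid cells but 2.70% and 3.45% in macrophages, where Slc2a1 gave 77.7% and 77.5%. Such shares depend on how well each transcript was captured, so they are compared between classes and not between genes.

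Median depth was 4164.5 and 4775 UMIs in lymphoid cells and 9131 and 10112 in macrophages, so every cell was also thinned to 2000 UMIs in 1 random draw, and the order was the same. Thinning left out 88 and 14 shallower lymphoid cells and 144 and 109 macrophages. A Slc2a3 UMI was then present in 14.3% of WT lymphoid cells (exact binomial interval 12.3 to 16.4%) and 13.2% of those labelled KO. In macrophages it was present in 0.729% and 1.32% of cells. Without thinning the shares were 29.0% and 26.9% in lymphoid cells and 3.5% and 4.27% in macrophages. For Slc2a1 the thinned shares were 7.06% and 4.77% in lymphoid cells and 22.2% and 18.5% in macrophages.

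Lactate and other monocarboxylate carriers followed a similar split. Slc16a3, the lactate exporter of glycolytic cells, stood at 168 and 139 CPM in macrophages, 35.2 and 26.2 CPM in lymphoid cells and 35.7 and 16.1 CPM in non-immune cells. Slc16a7, a high-affinity pyruvate and lactate carrier, stood at 20.2 and 21.7 CPM in macrophages and below 2 CPM in the other classes. Slc16a1, the bidirectional lactate carrier, was lowest in macrophages, with 9.35 and 8.28 CPM against 20.1 and 15.2 CPM in lymphoid cells and 25.3 and 19.6 CPM in non-immune cells. Slc16a3 made up 85.0% and 82.3% of the UMIs of these 3 carriers in macrophages, and 63.0% and 60.5% in lymphoid cells.

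Slc16a11, a less studied member of the monocarboxylate family, was read mainly in lymphoid cells. It had 220 and 62 UMIs there (34.0 and 23.5 CPM), 7 and 8 UMIs in macrophages (0.142 and 0.223 CPM) and 0 UMIs in non-immune cells of both libraries. A count of 0, read as fewer than 3 UMIs, allows up to 1.04 CPM in WT non-immune cells and 1.31 CPM in those labelled KO. Slc16a10, which carries aromatic amino acids, and Slc16a6, a family member linked to taurine and ketone body export, were shared by lymphoid cells (85.4 and 90.2, 88.9 and 92.9 CPM) and macrophages (69.9 and 80.8, 61.9 and 63.0 CPM). Both were low in non-immune cells, at 2.18 to 7.97 CPM. Slc16a6 overlaps Amz2 and Arsg on the opposite strand, and the sources used here do not say whether reads were counted by strand.

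Amino acid exchangers differed by class in both chains. Slc3a2, the heavy chain, stood at 220 and 197 CPM in lymphoid cells, 199 and 169 CPM in macrophages and 129 and 94.4 CPM in non-immune cells, whose intervals lay below those of both other classes in each library. Slc7a11, the light chain that exchanges cystine for glutamate and feeds glutathione synthesis, stood at 172 and 219 CPM in macrophages and 130 and 158 CPM in non-immune cells. In lymphoid cells it stood at 6.48 and 4.93 CPM, which is 3.77% and 2.25% of the macrophage level, near the 2.92% and 3.98% of the C1q genes.

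Slc7a8 and Slc7a7, light chains for neutral and for cationic amino acids, were led by macrophages. Slc7a8 stood at 105 and 132 CPM there and at 2.93 and 1.52 CPM in lymphoid cells. Slc7a7 stood at 36.6 and 38.3 CPM against 2.93 and 3.03 CPM; it overlaps Oxa1l on the opposite strand. Slc7a5, the leucine carrier of activated T cells, was lower in macrophages (9.41 and 9.86 CPM) than in lymphoid (29.0 and 23.1 CPM) and non-immune cells (37.1 and 41.3 CPM). Slc7a6, a light chain for cationic and neutral amino acids, had the same order, at 8.74 and 10.3 CPM in macrophages, 26.9 and 24.6 CPM in lymphoid cells and 52.0 and 47.9 CPM in non-immune cells. Lymphoid gates differed in Slc7a5. It stood at 39.2 and 32.1 CPM in CD8 T, 26.2 and 23.8 in NK, 16.8 and 9.89 in conventional CD4 T and 15.3 and 30.9 in other T cells. In regulatory T cells it stood at 8.14 and 7.09 CPM (4 and 2 UMIs). Gamma delta or IL-17 T cells had 7.13 and 6.13 CPM (2 and 1 UMIs), so these 2 gates were not above macrophages.

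**Figure D2:**
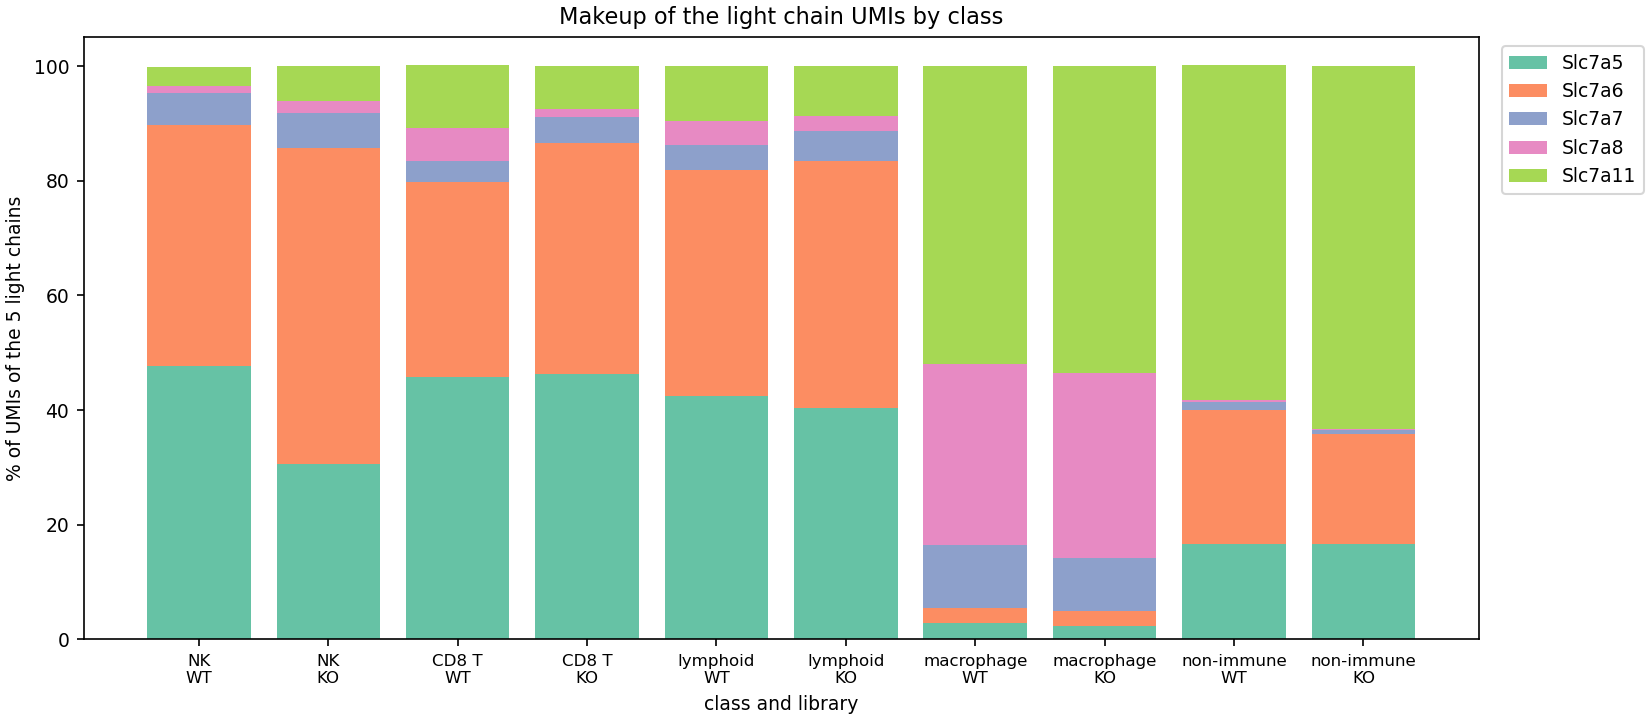
Share of the UMIs of 5 Slc3a2 light chains (stacked bars, percent) in each class of the WT and KO-labelled libraries. Slc7a5 and Slc7a6 fill most of the lymphoid bars, Slc7a11 and Slc7a8 most of the macrophage bars, and Slc7a11 58.3% and 63.4% of the non-immune bars.

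The carriers that load glutamine and other neutral amino acids were present in all classes. Slc38a1 stood at 256 and 242 CPM in lymphoid cells, 218 and 216 CPM in macrophages and 105 and 82.2 CPM in non-immune cells. Slc38a2, which is induced when amino acids are scarce, was highest in non-immune cells (205 and 200 CPM, against 131 and 146 in lymphoid cells and 102 and 126 in macrophages). Slc1a5, the glutamine and serine exchanger, was lower in macrophages (32.9 and 28.7 CPM) than in lymphoid (86.5 and 99.7 CPM) or non-immune cells (82.1 and 64.4 CPM). Slc38a6, a less studied family member, was led by macrophages at 59.6 and 85.3 CPM. Slc7a1, the arginine and lysine carrier, was highest in lymphoid cells (166 CPM in each library) but at 1.92 and 1.85 times the next class it missed the 2-fold limit.

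Macrophages also led Slc6a6, the taurine carrier, at 221 and 247 CPM against 66.0 to 74.4 CPM elsewhere. They led Slc43a2, a carrier of large neutral amino acids such as methionine, at 73.6 and 75.2 CPM against 21.6 and 30.3 CPM in lymphoid cells and 3.12 and 5.22 CPM in non-immune cells. Non-immune cells led 4 carriers. Slc6a15, a carrier of branched-chain amino acids and proline, had 70 and 49 UMIs there (24.2 and 21.3 CPM) and 0 in lymphoid cells. Slc6a9, the glycine carrier, had 25 UMIs in each library (8.66 and 10.9 CPM) and at most 0.167 CPM elsewhere; it overlaps B4galt2 and Ccdc24 on the opposite strand. Slc1a4, a carrier of alanine, serine and cysteine, stood at 13.2 and 15.2 CPM, and Slc43a3, a purine base carrier, at 49.9 and 39.2 CPM.

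Within the lymphoid class, Slc16a10 was highest in NK cells. It stood at 238 CPM in 240 WT NK cells (interval 215 to 263) and at 260 CPM in 75 labelled KO (222 to 303), against 35.1 and 36.9 CPM in the other lymphoid cells. Among the latter, gamma delta or IL-17 T cells stood at 99.8 and 85.8 CPM on 28 and 14 UMIs. In NK cells Slc16a10 was the single one of 23 transporters at 2 times the rest or more in both libraries, a limit that 2.82% of genes passed. Between 3.27% and 6.61% of the macrophage C1q level was present in T-cell gates of the library labelled KO and 3.0% in NK cells; in WT these values were 2.84% to 3.93% and 2.35%.

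In CD8 T cells the single such transporter was Slc16a11, at 62.8 CPM in WT (202 UMIs in 616 cells) and 61.0 CPM labelled KO (59 UMIs in 144 cells). The other lymphoid cells stood at 5.52 and 1.80 CPM, and 1.16% of genes passed. In NK cells Slc16a11 had 3 and 1 UMIs and in regulatory T cells 0 in both libraries, which by the same limit of 3 UMIs allows up to 6.11 and 10.6 CPM. Thinned to 2000 UMIs, 8.60% and 10.7% of CD8 T cells held a Slc16a11 UMI, against 0.0405% and 0.0940% of macrophages; unthinned shares were 18.8% and 20.1%.

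The smaller T-cell gates gave fewer UMIs. In regulatory T cells (103 and 68 cells) Slc16a3 stood at 67.2 and 74.5 CPM against 32.6 and 20.4 CPM in the rest, and Slc43a2 at 44.8 and 60.3 CPM against 19.7 and 26.7 CPM. Those were 2 of 23 transporters, where 3.83% of genes passed. Both are macrophage-led genes, and the C1q genes stood at 3.21% and 6.61% of the macrophage level in this gate; the part of that RNA in the result was not tested. In gamma delta or IL-17 T cells (76 and 36 cells) Slc16a6 stood at 182 and 288 CPM against 84.7 and 80.0 CPM, 1 of 23 where 3.33% of genes passed. In conventional CD4 T cells the 1 of 23 was Slc38a6, on 10 and 13 UMIs (33.6 and 42.9 CPM against 14.4 and 13.7 CPM), where 1.81% of genes passed. Lower by the same 2-fold rule were Slc43a2, Slc16a3 and Slc16a11 in NK cells. Slc16a10 was lower in CD8 T and conventional CD4 T cells. In regulatory T cells Slc7a11, Slc16a10, Slc7a5 and Slc16a11 were lower, and in gamma delta or IL-17 T cells Slc7a5, Slc16a3 and Slc16a11. The share of all genes lower in these gates is not given here, so the lower genes are not read as a result about transporters.

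**Figure D3:**
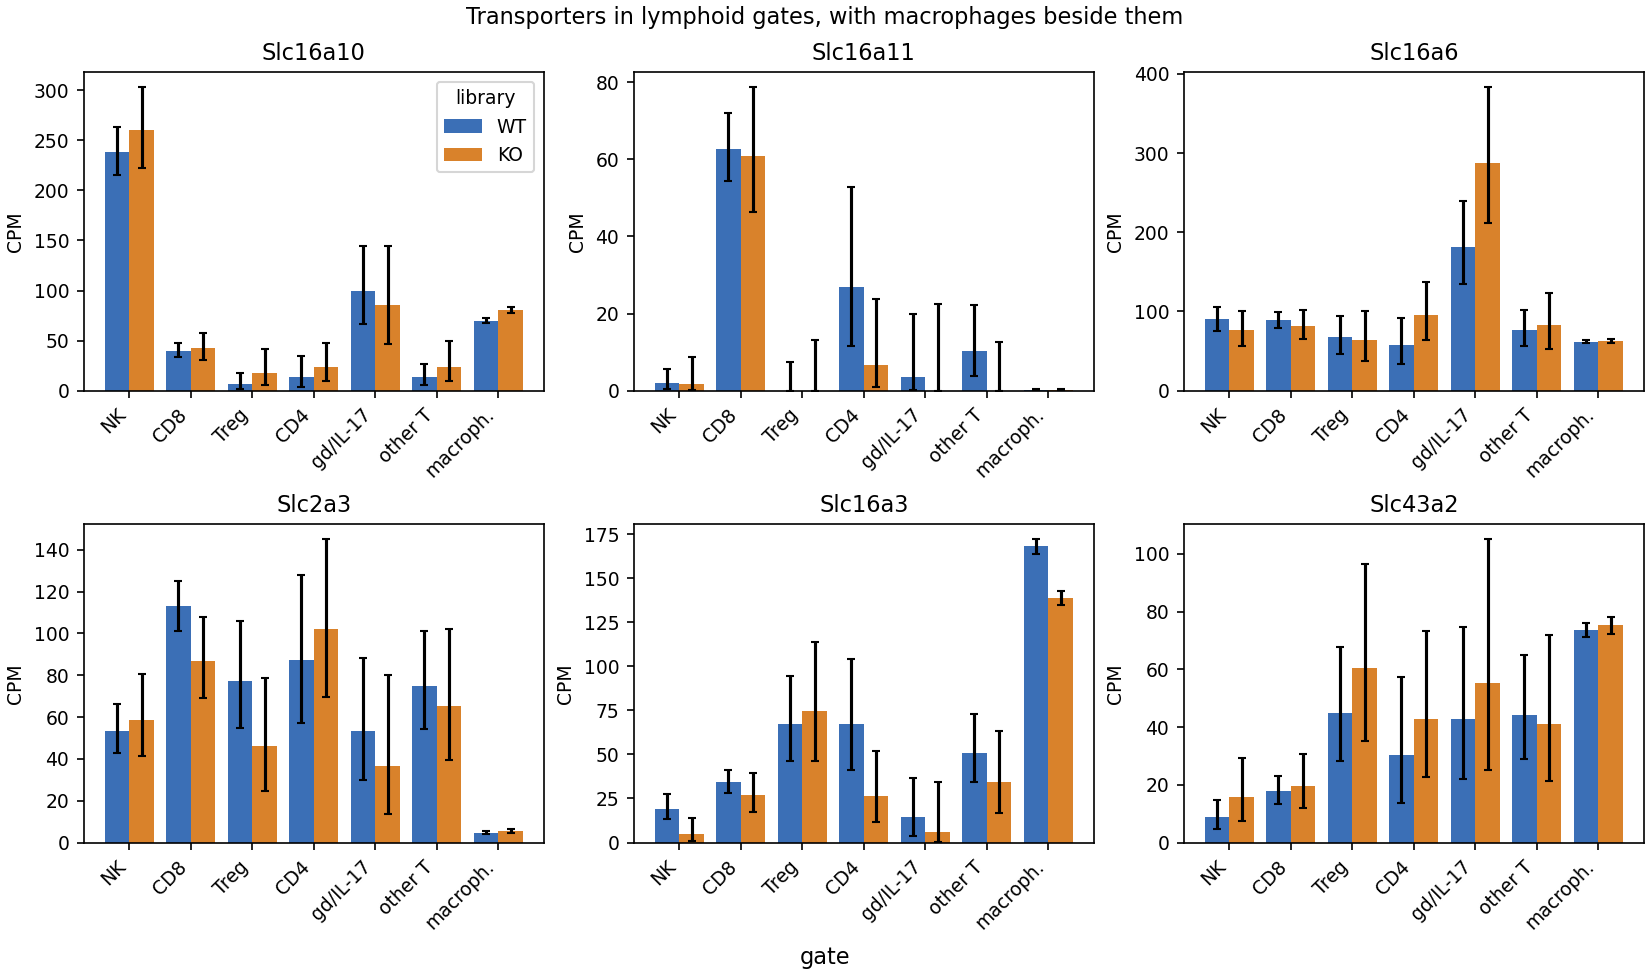
CPM of 6 transporters in lymphoid gates and macrophages of the WT (blue) and KO-labelled (orange) libraries; bars are summed levels and whiskers exact Poisson 95% intervals. Slc16a10 is highest in NK cells, Slc16a11 in CD8 T cells and Slc16a6 in gamma delta or IL-17 T cells, while Slc16a3 and Slc43a2 are highest in macrophages.

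Macrophages were also split into subtypes by identity genes, where the counts of transporters were near the shares over all genes. None of 32 transporters was at 2 times the rest in both libraries in resident-type cells (0.921% of genes passed), Ly6c2 monocyte-type cells (1.05%) or interferon-type cells (1.03%). In cycling macrophages 1 of 32 was, Slc43a3, at 22.1 and 23.5 CPM against 2.89 and 2.18 CPM, where 4.92% of genes passed. In cycling non-immune cells none of 21 was higher, where 5.23% of genes passed. Slc7a11 was lower there by the same 2-fold rule, at 39.5 and 31.7 CPM against 205 and 263 CPM in non-cycling cells (4.73% of genes were lower). Cycling non-immune cells were deeper, with medians of 23379 and 30392 UMIs against 11554 and 15535.5; the part of depth in the result was not tested.

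Transporters were graded within macrophages along a list of 12 hypoxia-response genes that holds no transporter. Macrophages of each library were ranked by the list's share of each cell's UMIs and split into 4 bins of like size. From the lowest to the highest bin Slc2a1 stood at 49.6, 88.7, 138 and 281 CPM in WT. In the library labelled KO it stood at 32.9, 63.5, 128 and 266 CPM. Slc16a3 stood at 71.6, 130, 201 and 268 CPM in WT and at 43.9, 92.5, 164 and 254 CPM labelled KO. Neighbouring bins had separate Poisson intervals for both genes in both libraries.

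Slc7a11 was graded along the same bins, from 96.2 to 243 CPM in the WT library and from 81.1 to 380 CPM in the one labelled KO. Slc6a8, the creatine carrier, stood at 4.35 and 12.8 CPM in the lowest and highest WT bins and at 7.60 and 16 CPM in those labelled KO, but the bin next to the highest was lowest in the latter (5.06 CPM). These 4 of 29 transporters were at least 2 times higher in the highest bin than in the lowest in both libraries, where 2.77% of 12243 genes were. By the same 2-fold rule Slc43a3 alone was lower, at 2.67 against 8.17 CPM and 3.5 against 10.8 CPM, where 3.63% of genes were. The highest and lowest bins had like depth, with medians of 8628 and 8547 UMIs (WT) and of 9523 and 9924 UMIs (labelled KO).

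Carriers that were not graded include Slc6a6, at 219 and 233 CPM in the lowest and highest WT bins and 248 and 245 CPM labelled KO, and the heavy chain Slc3a2 (197 and 209, 171 and 174 CPM). Slc7a8 went from 84.3 to 141 CPM and from 109 to 174 CPM, short of 2-fold. Among 20 glycolysis enzymes, of which Pfkfb4 is also in the ranking list and is not counted as higher, 12 were at least 2 times higher in the highest bin, among them Ldha, which makes lactate (438 to 1150 CPM in WT, 366 to 1069 CPM labelled KO), and Pgk1 (283 to 994 and 218 to 952 CPM). Of 5 partner proteins Bsg, which encodes basigin, was the 1 that passed. Ranking macrophages by Arg1, an arginine-degrading enzyme of tumor macrophages, gave 3 higher transporters of 29, Slc2a1 (80.8 to 221 and 68.2 to 212 CPM), Slc16a3 and Slc6a8, where 1.49% of genes passed. Slc43a3 was again the lower 1 of 29, where 1.84% of genes were. Depth moved with Arg1: medians were 7872 and 9473.5 UMIs in the lowest and highest WT bins and 7673 and 10773 in those labelled KO.

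**Figure D4:**
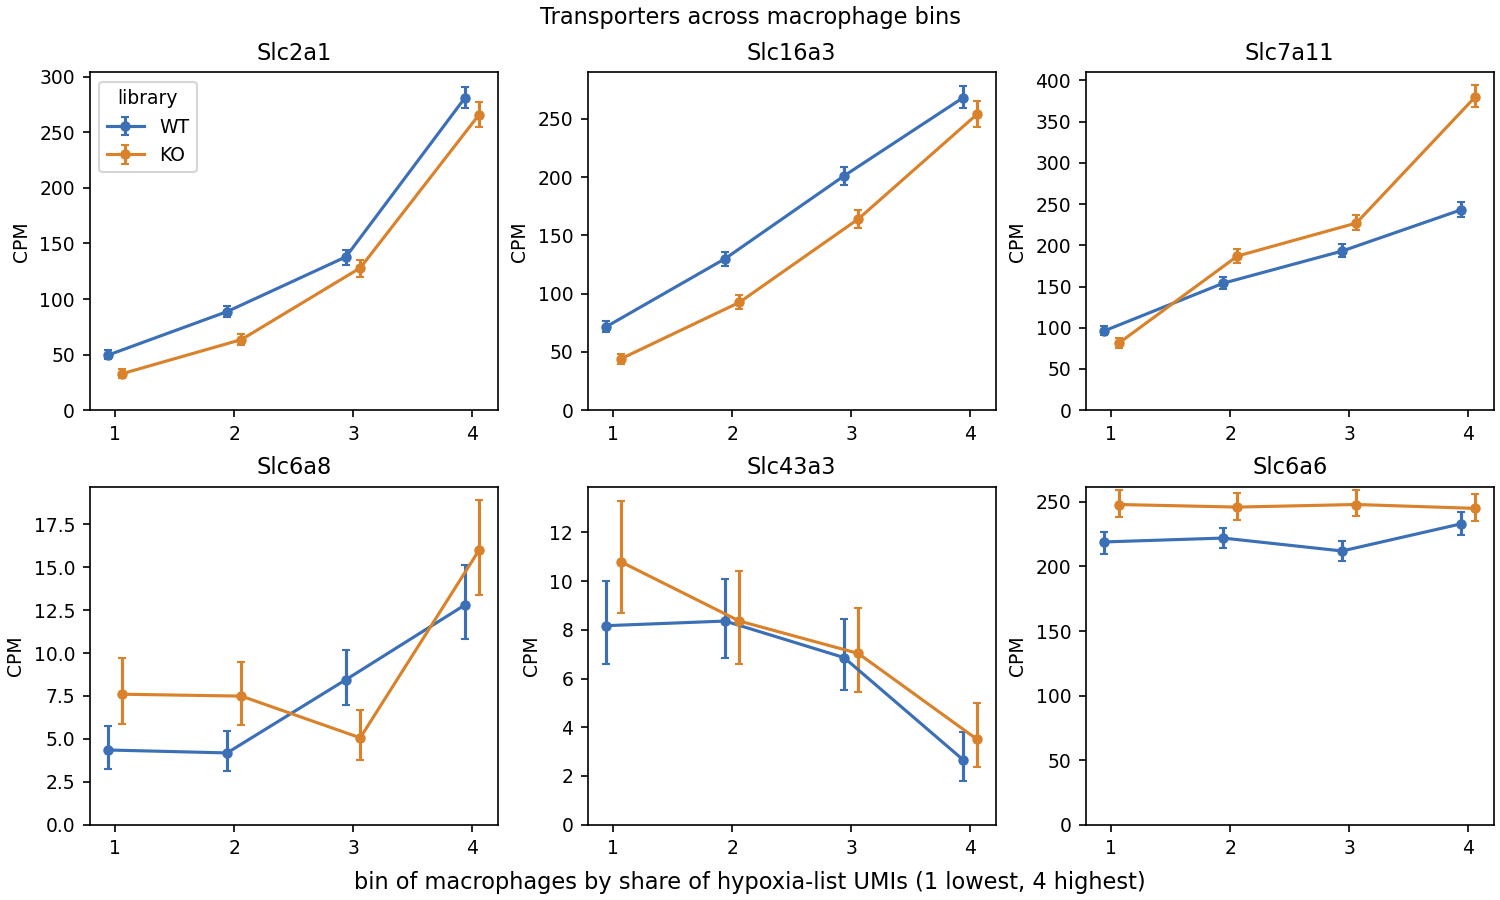
CPM of 6 transporters across bins of macrophages ranked by a hypoxia gene list (x axis, 1 lowest to 4 highest) in the WT (blue) and KO-labelled (orange) libraries; whiskers are exact Poisson 95% intervals. Slc2a1, Slc16a3 and Slc7a11 are higher in bin 4 than in bin 1 in both libraries, Slc43a3 is lower, and Slc6a6 ranges from 212 to 248 CPM.

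The libraries were then compared class by class, as log2 of (KO CPM + 5)/(WT CPM + 5), for genes with at least 50 UMIs in the class; a size of 0.5 or more was counted as past the fold. In macrophages 0 of 32 transporters were past it in either direction, where 1.59% of all genes were higher and 1.17% lower. Their values ranged from -0.27 (Slc16a3) to 0.48 (Slc38a6), with a median of 0.04 against -0.01 over all genes. Slc7a11 stood at 0.34 and Slc7a8 at 0.32. The 5 CPM added to each side held the least read transporters inside the fold. Slc16a14 stood at 1.05 and 0.613 CPM (CPM ratio 0.581) with a value of -0.11. Slc2a12 stood at 0.487 and 0.808 CPM (ratio 1.66) with a value of 0.08. On simulated counts the rule recovered 136 of 200 planted changes in macrophages. The count of 0 is thus not read as stability of the transporters.

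The make-up of the classes differed between the libraries: CD8 T cells were 48.2% of WT and 31.7% of KO-labelled lymphoid cells, regulatory T cells 8.06% and 15.0%, and resident-type cells 22.6% and 40.3% of macrophages. The part of make-up in the class values was not tested.

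In lymphoid cells 0 of 23 were higher and 2 lower, where 2.65% and 3.01% of genes were. Slc2a8, an intracellular hexose carrier, had 68 UMIs in the WT library and 12 in that labelled KO (10.5 and 4.55 CPM, log2 -0.70). Slc2a1 stood at -0.54, with a CPM ratio of 0.651 (interval 0.494 to 0.848). The median was -0.10, against -0.03 over all genes. Male-type cells alone, a sex type that both libraries hold, were 1013 WT and 124 KO-labelled lymphoid cells and 4221 and 865 macrophages. In these lymphoid cells Slc2a8 stood at -0.37 and Slc2a1 at -0.11, neither past the fold. Slc16a3 stood at -0.87 there, against -0.37 over all lymphoid cells. Slc2a8 had at most the 12 KO-labelled UMIs given above to draw on. Intervals and the share of all genes past the fold are not given for this split, and the part of sex in the differences was not tested. In macrophages of that type Slc2a1 stood at 0.23, against -0.17 over all macrophages, and Slc16a3 at 0.01 against -0.27.

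NK cells are the class that the series' title names. Of 14 transporters measured there, 1 was higher and 1 lower past the fold, where 4.60% and 7.73% of genes were. Slc7a6 stood at 23.1 CPM in the WT library and 42.8 CPM in that labelled KO (37 and 27 UMIs, log2 0.77). Slc2a1 stood at 39.9 and 12.7 CPM (64 and 8 UMIs, log2 -1.35, ratio 0.318 with an interval of 0.132 to 0.664). Slc16a10 differed by 0.12. In male-type NK cells alone (207 and 20 cells) 5 transporters were past the fold. The share of all genes past it in so few cells is not given here, so that count is not read as a result about transporters. In CD8 T cells 0 of 19 were past the fold, where 3.57% of genes were higher and 6.30% lower; Slc16a11 stood at -0.04. In non-immune cells 0 of 21 were higher and 1 lower, where 2.08% and 3.91% of genes were: Slc16a3, at 35.7 and 16.1 CPM (103 and 37 UMIs, log2 -0.95).

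**Figure D5:**
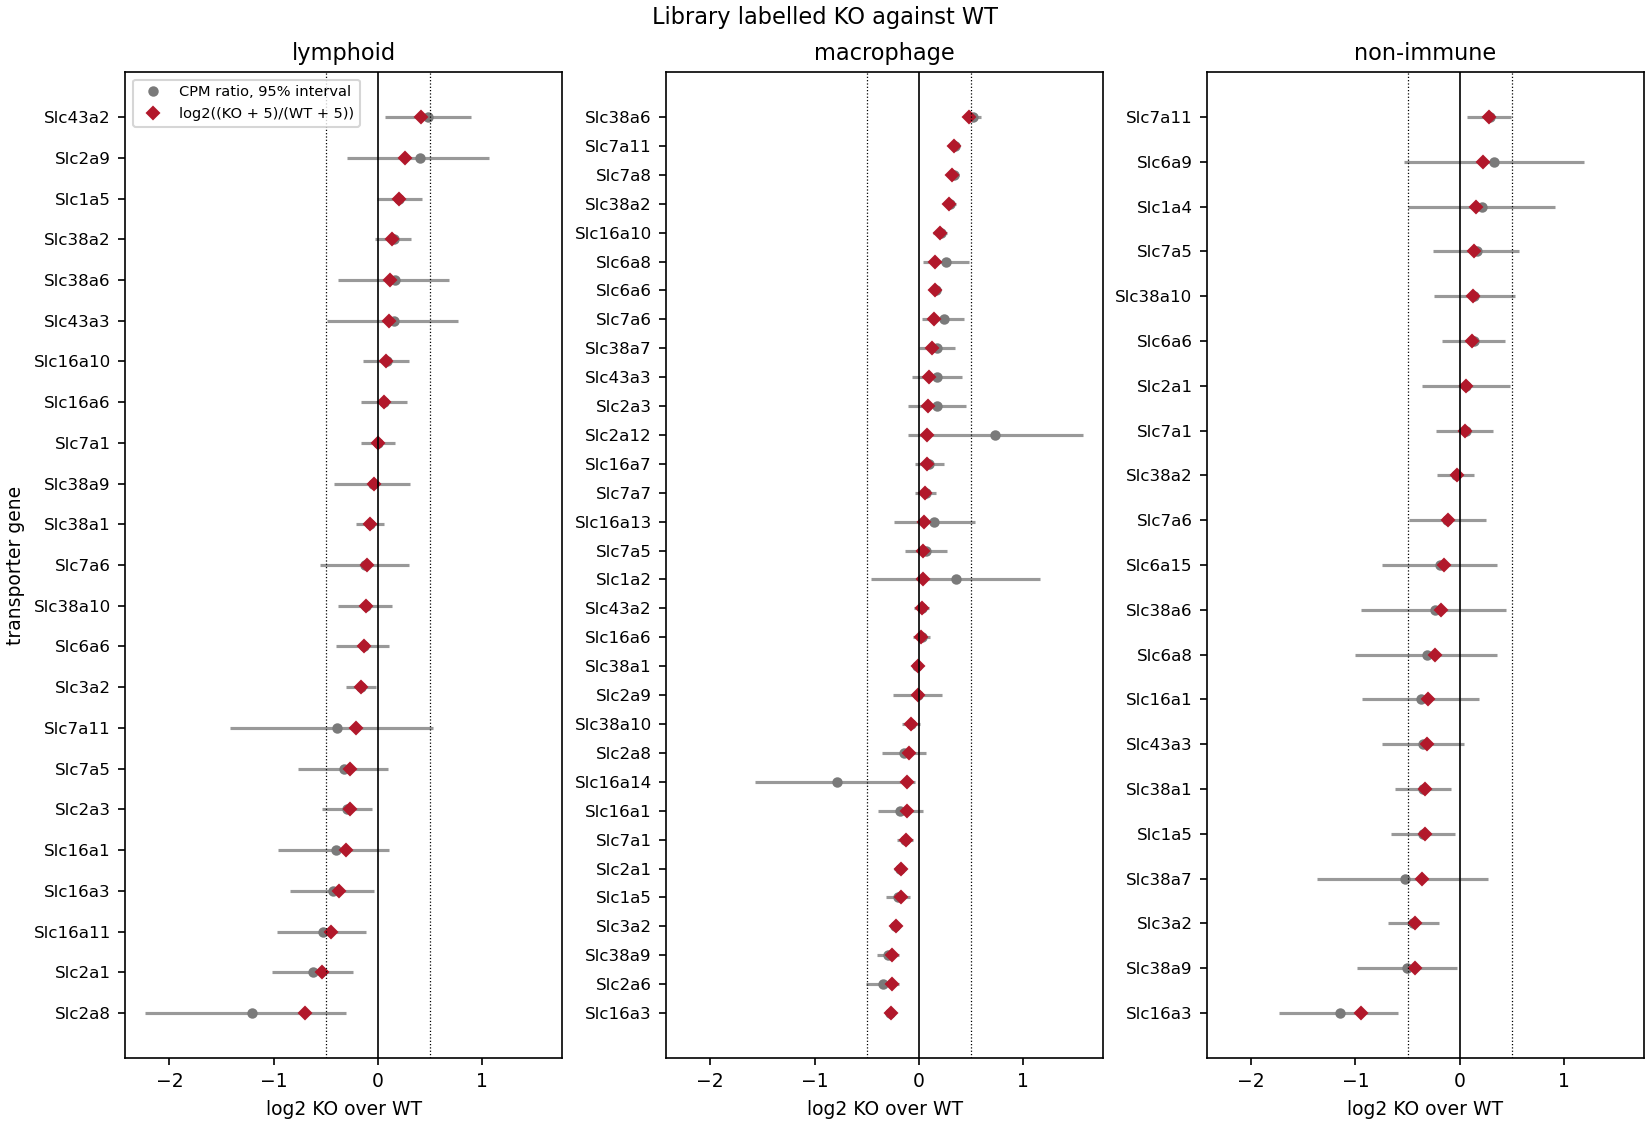
Library labelled KO over WT for each transporter with at least 50 UMIs in lymphoid, macrophage and non-immune cells; grey points and lines are log2 CPM ratios with exact 95% counting intervals, red diamonds log2 ratios after adding 5 CPM, and dotted lines the fold of 0.5. Most transporters lie inside the dotted lines in all panels, with Slc2a8 and Slc2a1 below them in lymphoid cells and Slc16a3 in non-immune cells.

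The enzymes that use what these carriers import are given by class and then by library. Non-immune cells led 6 of 20 amino acid enzymes, among them Phgdh, the first enzyme of serine synthesis (238 and 175 CPM, against 56.7 and 41.3 in lymphoid cells and 1.66 and 2.31 in macrophages), and Asns, which makes asparagine (75.9 and 56.6 CPM against 8.18 or less). They also led 6 of 16 genes of the ATF4 starvation response, where they led 15.5% of all genes. Macrophages led 5 of 20 glycolysis enzymes, among them Hk2 (154 and 166 CPM) and Hk3 (54.2 and 56.4 CPM), where they led 8.43% of all genes, and non-immune cells led 2. Of 11 glutathione genes macrophages led 3, among them Gpx1, and non-immune cells led 3 (Gsr, Nqo1 and Chac1). Lymphoid cells led Emb, which encodes embigin, another partner of Slc16 carriers, at 645 and 753 CPM against 259 and 204 CPM in macrophages. Between the libraries 0 of 16 glycolysis enzymes in lymphoid cells, 0 of 20 in macrophages and 0 of 15 in non-immune cells were past the fold. Of all genes 2.65% were higher and 3.01% lower in lymphoid cells, 1.59% and 1.17% in macrophages, and 2.08% and 3.91% in non-immune cells. The medians of the enzymes were -0.15, -0.22 and -0.12, against -0.03, -0.01 and -0.05 over all genes.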

How the data were processed

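Single-cell libraries of mouse colon were made on microwell chips with barcoded beads, per the labels' protocols. The deposited values are whole UMI counts per gene and barcode; per the file headers they were written by cellranger 8.0.1, and the submitters' processing notes name mm10 and Seurat 3. The libraries held 8800 (WT) and 6573 (labelled KO) barcodes with 85367638 and 62465176 UMIs.

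Barcodes with at least 500 UMIs, 200 genes and at most 25% mitochondrial UMIs were kept. Scrublet in scanpy 1.11.5 found almost no doublets by its own threshold, so the 5% of barcodes with the highest scores were removed (457 and 319), which left 8343 and 5194. A lineage gate needed at least 3 (T, NK) or 5 (macrophage, mesenchymal) detected markers and, apart from the exceptions that follow, fewer than 3 of other lineages. T cells also needed at least 2 of Cd3e, Cd3d, Cd3g and Trac. NK cells could hold at most 1 of those, with no limit on other T-cell markers. Mesenchymal cells could hold fewer than 5 macrophage markers, and dendritic markers were limited in macrophages alone. These details were chosen after marker detection had been seen. Counts were summed per class with Python 3.11.15, numpy 2.4.6 and scipy 1.17.1. Named genes were those led by a class, past the fold, at 2 times the rest of a gate, and 12 fixed carriers; Slc7a1, Slc7a6, Slc7a8, Slc16a6, Slc16a10 and a few others were named after their values were seen. On simulated counts with 200 planted changes of 1 on the log2 scale, the fold rule recovered 185 in lymphoid cells, 136 in macrophages and 188 in non-immune cells. Of genes with no planted change, 0.935%, 0% and 1.46% were past the fold in these classes. With 1 library per genotype, this recovery does not say how well a difference between genotypes would be found. The members and lists were chosen with earlier results of these data known. 2 further matching genes are not reported here.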

Additional observations from a re-analysis of the deposited data

How the results depend on the processing

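No paired analysis was possible because each genotype has 1 library, and no library could be left out. The number of transporters led by macrophages stayed between 8 and 10 and that led by lymphoid cells between 2 and 3 under every alternative run (gates with 1 marker more or fewer, no doublet removal, stricter cell filters, other UMI minimums, other scaling, other leading folds, and, chosen after seeing the data, no cells with both sex signals). With a minimum of 200 UMIs, non-immune cells led 1 transporter in place of 4, since fewer genes were counted; it was 6 with a minimum of 20 UMIs and 6 with a leading fold of 1.5. The count past the fold in lymphoid cells, 2 in the report, was 1 with 1 marker more per gate, 1 with a minimum of 200 UMIs, 0 with a pseudocount of 20 CPM, 0 with a fold of 1 and 3 with a pseudocount of 1 CPM. In non-immune cells, 1 in the report, it was 2 with a minimum of 20 UMIs, 0 with 200 and 0 with a fold of 1. In macrophages it was 1 with a pseudocount of 1 CPM. In NK cells it ranged from 0 to 5 and in CD8 T cells from 0 to 3. The cause of these shifts was not tested beyond the change in genes counted. Male-type cells alone were not run for non-immune cells, where 14 and 4 cells had that call. The median counting interval reached 0.11 to either side on the log2 scale in macrophages, 0.39 in lymphoid, 0.48 in NK and 0.41 in non-immune cells. Single genes had narrower or wider intervals. With 1 library per genotype these intervals hold no spread between libraries, so they set no limit for a difference between genotypes.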

Other observations

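Some genes outside the carrier families, named after their values were seen, differed between the libraries past the fold; sex type moves with the label, and its part was not tested. Cebpb, a transcription factor of the stress and inflammatory response, stood at 5.56 CPM in WT and 14.4 CPM in the library labelled KO in lymphoid cells, at 75.7 and 159 CPM in macrophages and at 10 and 21.8 CPM in non-immune cells (log2 0.88, 1.02 and 0.83). Odc1, the first enzyme of polyamine synthesis, stood at 383 and 558 CPM in lymphoid cells and at 162 and 235 CPM in macrophages. Gsr, which regenerates glutathione, differed in macrophages (16.3 and 36.3 CPM, log2 0.96) but stood at 0.04 in lymphoid cells and at -0.12 in non-immune cells on that scale. In cycling macrophages 4 of 18 amino acid enzymes, Phgdh, Psat1, Shmt1 and Mthfd2, which serve serine and one-carbon synthesis, were at least 2 times the rest in both libraries, where 4.92% of all genes were.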
